A study of Mus musculus with 4 samples.

Results

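The genes described here carry peptides to the cell surface for inspection by T cells, together with the inhibitory ligand PD-L1 (gene Cd274). They are 10 of the 25239 gene symbols counted in mouse embryonic stem cells (mESC) with and without deletion of Ogt, which encodes the enzyme that attaches O-GlcNAc to proteins. Cd274 and the class II chain gene H2-Aa were picked by their rise in these same libraries, so their values are given as a description with no test. The other 8 members were listed by function: H2-K1, H2-D1, B2m, Tap1, Tap2, Tapbp, Nlrc5 and Ciita. All cells carried the Ogt fl/fl genotype and grew with LIF and serum replacement on feeder fibroblasts halted with mitomycin C. The Ogt iKO group (2 libraries) received 4-OHT, a tamoxifen metabolite, for 6 days, and the control group (2 libraries) did not. Live cells of both groups were separated from feeders by flow cytometry with antibodies to CD90.2 and CD326. Treated cells alone were gated on a yellow fluorescent protein as well, so that this selection, 4-OHT itself and the loss of Ogt cannot be told apart. The labels give neither the strain or number of lines nor whether the 2 libraries of a group came from separate cultures, and p-values measure only the spread between these libraries.

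In background terms, MHC class I molecules pair a heavy chain (in the mouse, H2-K1 or H2-D1 among others) with beta-2 microglobulin (B2m). The proteasome cuts cytosolic proteins, the TAP transporter (Tap1 and Tap2) moves the peptides into the endoplasmic reticulum, and tapasin (Tapbp) helps load them. Class II molecules, such as that with the H2-Aa chain, present peptides from endosomes and belong mostly to professional antigen-presenting cells. The co-activators NLRC5 and CIITA act on class I and class II promoters respectively, through factors bound to the conserved X and Y boxes. Interferon-gamma acts through the kinases JAK1 and JAK2 and the factor IRF1 to raise most of these genes, PD-L1 included, and embryonic stem cells are known for low class I expression.

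The promoters are shown because they carry the sites through which these genes are known to be controlled. RefSeq sequence (GRCm38.p6) from 250 bases before to 50 after a start was at hand for 7 of the 10 members, with Tap2, Nlrc5 and Ciita having no entry. The 250 bases before the start follow for 5 of them, 5′ to 3′ on the strand of the gene. For Cd274 the table's start lies inside the annotated span of the gene, so the printed bases do too. Capitals mark, on either strand, an interferon-stimulated response element core (GAAANNGAA), a kappaB-like site (GGGNNTTCC), an X2 box core (TGACG), a Y box (ATTGG) and a gamma-activated site (TTCNNNGAA). In H2-Aa the X2 core overlaps its copy on the other strand.

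Cd274, chr19:29367188-29367437, plus strand: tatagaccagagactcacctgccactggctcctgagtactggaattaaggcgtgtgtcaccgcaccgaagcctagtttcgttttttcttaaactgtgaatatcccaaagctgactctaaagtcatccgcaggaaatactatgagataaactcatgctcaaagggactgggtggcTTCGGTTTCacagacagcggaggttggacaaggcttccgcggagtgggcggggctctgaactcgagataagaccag

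B2m, chr2:122147437-122147686, plus strand: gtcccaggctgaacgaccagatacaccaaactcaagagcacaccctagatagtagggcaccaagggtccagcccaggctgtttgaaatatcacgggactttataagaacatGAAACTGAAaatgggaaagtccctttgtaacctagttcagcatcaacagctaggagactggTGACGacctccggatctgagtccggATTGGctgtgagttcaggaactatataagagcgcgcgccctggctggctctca

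H2-K1, chr17:34000348-34000597, minus strand: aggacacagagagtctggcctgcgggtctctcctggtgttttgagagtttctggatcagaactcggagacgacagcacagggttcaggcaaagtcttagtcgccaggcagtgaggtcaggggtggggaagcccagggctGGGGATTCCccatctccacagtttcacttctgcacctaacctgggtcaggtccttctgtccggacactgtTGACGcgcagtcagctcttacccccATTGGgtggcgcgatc

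H2-D1, chr17:35262844-35263093, plus strand: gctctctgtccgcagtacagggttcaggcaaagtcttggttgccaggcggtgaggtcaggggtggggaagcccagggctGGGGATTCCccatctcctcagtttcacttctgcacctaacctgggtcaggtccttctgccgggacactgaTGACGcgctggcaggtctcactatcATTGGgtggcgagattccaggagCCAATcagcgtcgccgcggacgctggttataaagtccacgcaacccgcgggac

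H2-Aa, chr17:34287824-34288073, minus strand: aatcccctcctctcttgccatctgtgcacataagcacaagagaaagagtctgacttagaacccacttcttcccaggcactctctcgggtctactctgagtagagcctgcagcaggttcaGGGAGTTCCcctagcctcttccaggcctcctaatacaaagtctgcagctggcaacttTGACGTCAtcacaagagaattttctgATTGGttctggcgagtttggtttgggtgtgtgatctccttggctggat

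Cd274 held the interferon-stimulated response element core at position -76, on the opposite strand, and none of the other motifs searched. B2m held this core too, at -139, and 8.56% of the 32851 promoters of this length in the table had it. H2-K1, H2-D1 and H2-Aa held the kappaB-like site (5.82% of promoters). An X2 core was found in 5 of the 7 members (20.8% of promoters) and a Y box in 6 (37.4%), Cd274 being the exception. In B2m, H2-K1 and H2-D1 the first base of the X2 core lay 25 bases before that of the Y box, and in H2-Aa 26 bases. A distance of 24 to 27 bases, a range chosen after these were seen, occurred in 0.14% of promoters. A gamma-activated site (8.3%) or an E-box, CACGTG (7.15%), was not among the letters of any of the 7 windows. These are matches of letters, and binding was not measured.

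The libraries held 14668489 to 16504204 counts. Ogt itself gave 437 and 389 counts after deletion and 2963 and 3108 without it, a level 12.9% of that in control. Expression was tested with edgeR's quasi-likelihood test over 14525 genes, and a gene is called where its p after Benjamini-Hochberg adjustment was under 0.05. By that rule 65.3% of all genes were called, 33.2% higher and 32.0% lower in Ogt iKO, so a call alone sets no gene apart here. The share called higher by at least 2-fold was 14.9%. Levels are in CPM, the usual per-library unit of counts, on TMM-scaled library sizes. Pluripotency markers were abundant in both groups, at a summed level of 2610 and 2898 CPM over 13 genes in Ogt iKO and 4490 and 4438 CPM in control. Of these 13 genes 12 were called lower in Ogt iKO, 4 of them by at least 2-fold, and 0 higher. Markers of 2 other cell types were also present. Over 20 fibroblast markers the summed level was 4223 CPM in Ogt iKO replicate 1, 1546 CPM in replicate 2, and 1663 and 1833 CPM in the controls. Of these 20 markers 5 were higher and 15 not called. Tagln rose by 2.60 on the log2 scale, Acta2 by 1.72, Lox by 1.68 and Pdgfrb by 1.61. Lox was lost under 4 of 13 alternatives, with log2 fold changes of 0.32 to 2.34 when 1 library was left out (0.32 without Ogt iKO replicate 1), and Acta2 was lost with a robust spread (adjusted p 0.07729, edgeR). Over 16 markers of leukocytes, macrophages, dendritic and B cells it was 194 and 121 CPM in Ogt iKO and 107 and 77.6 CPM in control. Laptm5, which was called lower, gave most of the control sum (59.3 and 58.4 CPM), and it was at 31.1 and 28.0 CPM in Ogt iKO. The genes of the sort antigens were at 25.6 and 8.90 CPM in Ogt iKO and 15.6 and 15.6 CPM in control for Thy1 (CD90), and at 284 CPM ± 4.67 (SD, n = 2) and 327 CPM ± 28.8 (SD, n = 2) for Epcam (CD326). The labels have CD90.2 marking the stem cells and CD326 excluding feeders, the reverse of what these antigens usually mark, and which cells each gate kept was not settled here. In such bulk samples, more cells of a type and more RNA per cell cannot be told apart.

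Of the 8 members listed by function, 6 rose in Ogt iKO and 2 were not called, while 33.2% of all genes were higher. Each of the 6 rose at least 2-fold: both class I heavy chains, their light chain, both TAP subunits and tapasin. The 2 not called were the co-activators Nlrc5 and Ciita. The count of members called lower was 0, at an adjusted or an unadjusted p under 0.05 in edgeR and at an adjusted p in DESeq2. All 8 had both Ogt iKO libraries above both controls, which was true of 42.3% of all genes. The filter on low counts was passed by all 10 members, by H2-Aa and Ciita through their Ogt iKO libraries alone. For Ciita, 1 of the 8, the order of the groups was thus largely fixed by the filter.

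**Figure D1:**
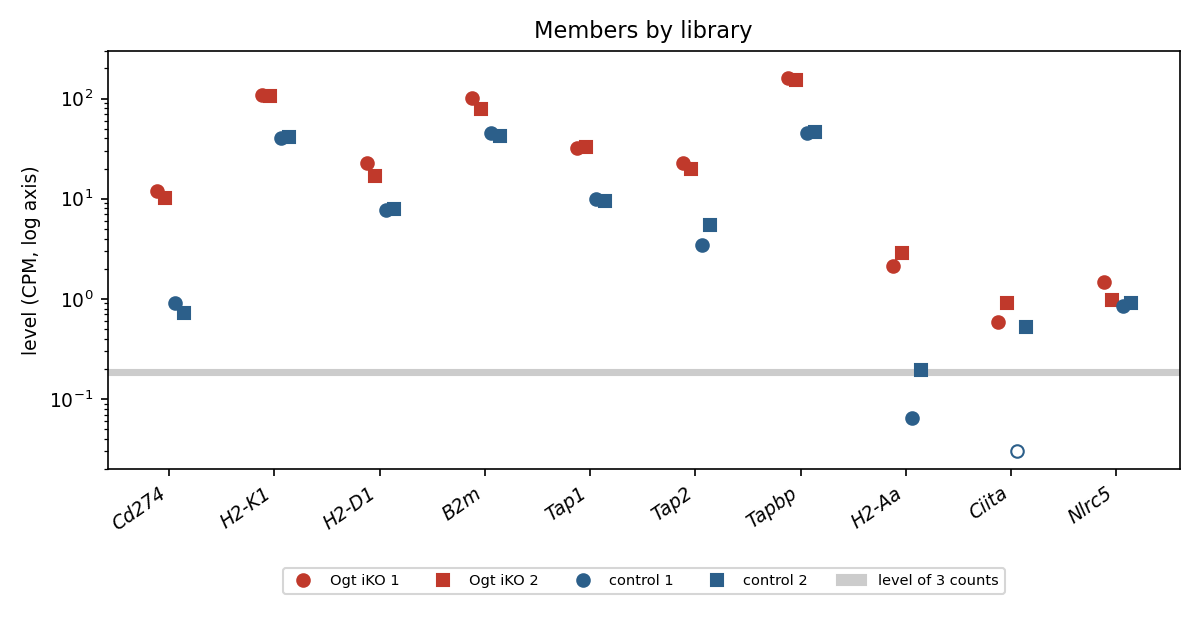
Level of each member (CPM, log axis) in the 2 Ogt iKO libraries (red) and the 2 control libraries (blue), with circles for replicate 1 and squares for replicate 2. The open circle is a count of 0 (Ciita, control replicate 1) drawn at the foot of the axis, and the grey band is the level of 3 counts. H2-K1 lies at 108 and 106 CPM in Ogt iKO against 40.2 and 41.7 CPM in control, whereas Nlrc5 and Ciita lie near or under 1 CPM in most libraries.

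H2-K1 lies on chromosome 17 from 33996012 to 34000619 (GRCm38). Counts of H2-K1 were 1839 and 1643 in Ogt iKO, and 622 and 639 in control. The libraries of each group agreed closely and the groups were far apart. The mean level was 40.9 CPM ± 1.04 (SD, n = 2) without 4-OHT and 107 CPM ± 1.16 (SD, n = 2) with it, and the log2 fold change was 1.38 (SE 0.0693, adjusted p 1.931e-06, edgeR). H2-D1, the second classical heavy chain, lies on the same chromosome from 35263094 to 35267497 and had 387 and 264 counts against 120 and 122. Its log2 fold change was 1.34 (SE 0.166, adjusted p 1.648e-04, edgeR). Ogt iKO replicate 1 was 1.33 times replicate 2 for H2-D1, where the controls were almost equal. Heavy-chain genes resemble each other: of the 50-base windows of the longest transcript, 8.11% in H2-K1 and 14.3% in H2-D1 also occur in a transcript of another gene, most often H2-D1 and H2-Q1 respectively, so part of their reads may have been lost or shared in counting.

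B2m, the light chain that every class I heavy chain needs, lies on chromosome 2 from 122147687 to 122153082. Its counts were 1748 and 1217 after deletion and 696 and 648 without. The lower of the 2 Ogt iKO libraries was still well above the controls. It stood at 43.6 CPM ± 1.93 (SD, n = 2) in control and reached 90.4 CPM ± 16.8 (SD, n = 2) in Ogt iKO, the smallest change of the 6 (log2 fold change 1.05, SE 0.120, adjusted p 1.057e-04, edgeR). Without Ogt iKO replicate 1, the library with the higher fibroblast markers, the log2 fold change was 0.85.

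The transporter genes rose more. Tap1 (chromosome 17, 34187556 to 34197225) had 547 and 504 counts after deletion and 153 and 144 without, and its log2 fold change was 1.74 (SE 0.105, adjusted p 4.536e-06, edgeR). Its 2 libraries of each group differed by little, at 32.0 and 32.5 CPM and at 9.89 and 9.39 CPM. Tap2 (34204479 to 34216321) had 388 and 310 counts against 54 and 84, and its log2 fold change was 2.25 (SE 0.201, adjusted p 2.914e-05, edgeR). The ratio of replicate 1 to replicate 2 for Tap2 was 0.637 in control and 1.14 in Ogt iKO. Tapbp (33919478 to 33929290) had 2717 and 2350 counts against 707 and 705, and its log2 fold change was 1.76 (SE 0.0636, adjusted p 5.426e-07, edgeR). In the annotation 24.9% of the exon length of Tapbp and 14.1% of that of Tap2 lie under an exon on the opposite strand, and the strand that was counted is not given in the sources used here.

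Nlrc5, the class I co-activator, lies on chromosome 8 from 94434335 to 94527272 and had 25 and 15 counts after deletion and 13 and 14 without. The lower Ogt iKO library was close to the controls. Its log2 fold change was 0.48 (SE 0.359), which did not pass the threshold (adjusted p 0.2706, edgeR). Ciita, the class II co-activator, lies on chromosome 16 from 10480014 to 10531064 and had 10 and 14 counts against 0 and 8. Ciita did not pass either (log2 fold change 1.48, SE 0.825, adjusted p 0.1454, edgeR), and its 2 controls differed from each other more than the lower Ogt iKO library did from the higher control. The fit without control replicate 2 called it (adjusted p 0.01052, edgeR), which sets it against 1 control with 0 counts, and without control replicate 1 the log2 fold change was 0.49.

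Cd274 lies on chromosome 19 from 29362107 to 29388095. Its counts were 203 and 157 after deletion and 14 and 11 without, or 11.9 and 10.12 CPM against 0.905 and 0.717 CPM. Both treated libraries were more than 10 times either control. The fitted log2 fold change was 3.75 (SE 0.239). Exons on the opposite strand cover 14.1% of its exon length. Leaving out 1 library or changing the scaling kept the log2 fold change between 3.58 and 3.92. H2-Aa (chromosome 17, 34282744 to 34287823) had 36 and 45 counts against 1 and 3, so its controls were at or under the limit of 3 counts that a count of 0 allows. The ratio of pooled counts was 19.1, with an exact 95% interval of 7.19 to 71.9 for the counting error of so few control counts, given as a description. The fitted log2 fold change of H2-Aa was 4.18 (SE 0.497). It was 5.10 without control replicate 2 and 3.61 without control replicate 1. Such an interval covers counting error only, and no molecular identifiers are named for these libraries.

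Divided by exon length, the members spanned a wide range. In CPM per kilobase of exon, B2m had the highest level in control (50.7 ± 2.24, SD, n = 2), then H2-K1 (13.9 ± 0.354, SD, n = 2) and Tapbp (12.6 ± 0.0552, SD, n = 2). H2-D1 (3.05 ± 0.0549, SD, n = 2), Tap1 (1.76 ± 0.0643, SD, n = 2) and Tap2 (1.19 ± 0.372, SD, n = 2) followed. Cd274 was at 0.224 ± 0.0366 (SD, n = 2), Nlrc5 at 0.103 ± 0.00606 (SD, n = 2), H2-Aa at 0.0343 ± 0.0244 (SD, n = 2) and Ciita at 0.0274 ± 0.0387 (SD, n = 2) on this per-length scale. In control, H2-Aa and Ciita did not differ beyond their spread. In Ogt iKO the per-length order was B2m (105 ± 19.6, SD, n = 2), Tapbp (42.8 ± 1.45, SD, n = 2), H2-K1 (36.3 ± 0.397, SD, n = 2) and H2-D1 (7.69 ± 1.54, SD, n = 2). Tap1 (5.89 ± 0.0641, SD, n = 2) and Tap2 (5.64 ± 0.507, SD, n = 2) were level within their spread. Cd274 reached 3.04 ± 0.342 (SD, n = 2), below the class I and loading members in both groups. H2-Aa reached 0.659 ± 0.148 (SD, n = 2), while Nlrc5 (0.143 ± 0.0412, SD, n = 2) and Ciita (0.0780 ± 0.0236, SD, n = 2) were lowest.

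The rest of the pathway was read from 10 lists, without Cd274 and H2-Aa. Of 103 genes tested in them, 57 were higher and 15 lower, and 39 were higher by at least 2-fold, beside the 14.9% given above for all genes. A control library was under the minimum of the filter for 11 of the 103, and of the other 92 genes 50 were higher, 32 of them by at least 2-fold, and 15 lower. The median log2 fold change of the 103 genes was 0.50, against 0.024 for all genes. The lists differed among themselves, as the plot of fold changes by list shows.

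**Figure D2:**
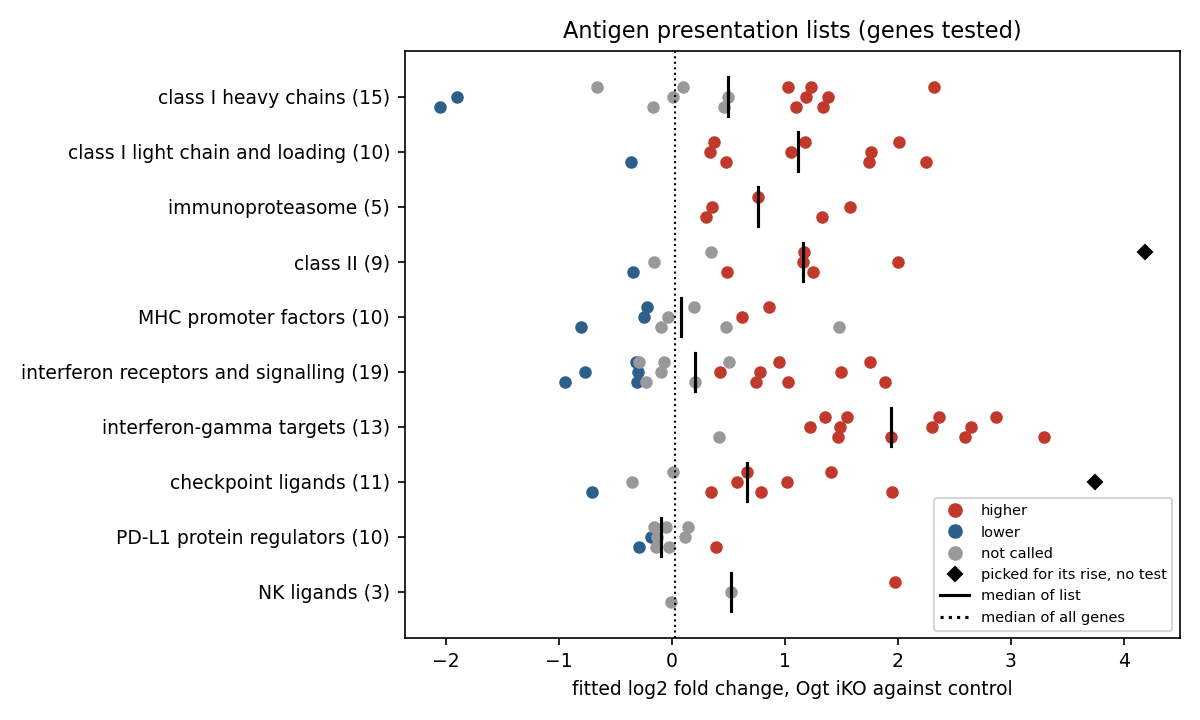
Fitted log2 fold change (Ogt iKO against control) of every tested gene of 10 lists, with the number tested in brackets; red, blue and grey points are genes called higher, called lower and not called, black diamonds are Cd274 and H2-Aa, bars are list medians and the dotted line is the median of all genes. Interferon-gamma targets have a median of 1.94 and all lie above 0, whereas regulators of the PD-L1 protein lie near 0 (median -0.097).

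Among class I and class I-like heavy chains, 15 of 29 genes were tested, and 7 were higher and 2 lower (median log2 fold change 0.50). The shares higher and lower over all genes were 33.2% and 32.0%. Besides H2-K1 and H2-D1, Mr1, which presents microbial vitamin B metabolites, had 38 and 47 counts against 8 and 8 and a fitted log2 fold change of 2.32. It passed the filter through its Ogt iKO libraries alone, and without it 6 heavy chains were higher. H2-T3 had 7 and 3 counts against 18 and 22 (log2 fold change -2.06), passed the filter through its controls alone and was not called by DESeq2 (adjusted p 0.05206). Without Ogt iKO replicate 1 its log2 fold change was -2.69. H2-M5 fell from 430 and 475 counts to 131 and 125 (log2 fold change -1.90, SE 0.121). Thus not all genes of the H2 complex moved the same way.

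All 10 genes of light chain, transport and loading were called, 9 higher and 1 lower, beside 33.2% and 32.0% of all genes. Erap1, the aminopeptidase that trims peptides for class I, had 1767 and 1451 counts after deletion, 421 and 334 without, and rose by 2.01 on the log2 scale (SE 0.111, adjusted p 3.133e-06, edgeR). The general chaperones of this list moved less: Calr rose by 0.37, Pdia3 by 0.48 and Hspa5 by 0.34, and Canx fell by 0.37. Of the inducible proteasome, all 5 tested genes were higher. The catalytic subunits Psmb8 and Psmb9 had 200 and 193 counts against 71 and 54, and 106 and 109 against 49 and 32. Their log2 fold changes were 1.57 and 1.33, against 0.76 for Psmb10, 0.35 for Psme1 and 0.30 for Psme2.

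In the class II list, 5 of the 8 tested genes other than H2-Aa were higher and 1 was lower. Over all genes these shares were 33.2% and 32.0%. H2-Eb1, a beta chain, had 107 and 119 counts against 51 and 44 (log2 fold change 1.17, SE 0.209, adjusted p 0.001261, edgeR). Cd74, the invariant chain, had 149 and 169 against 68 and 59 (1.25, SE 0.193). H2-Ab1, whose protein pairs with that of H2-Aa, was not called, with 24 and 19 counts against 15 and 17 (log2 fold change 0.34, SE 0.318, adjusted p 0.3695, edgeR). H2-DMb1, one chain of the peptide exchange factor, had 48 and 42 counts against 22 and 16 and a log2 fold change of 1.16, a rise that was not called in DESeq2 (adjusted p 0.09214) or without control replicate 2 (0.05763). H2-DMa, the other chain, was not called (-0.16). The endosomal protease genes Ctss and Lgmn rose by 2.00 and 0.49, and Ifi30, a lysosomal thiol reductase, fell by 0.35. With scaling by library totals alone Ifi30 was not called.

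Leukocyte markers are given beside the class II genes. Of 16, 13 were tested, 6 of them with a control library under the minimum of the filter, and 10 were higher and 2 lower. Among all genes 33.2% were higher and 32.0% lower. Adgre1, which encodes the macrophage antigen F4/80, had 253 and 172 counts after deletion and 41 and 9 without, and Csf1r had 156 and 125 against 35 and 10. Lyz2, which encodes lysozyme, had 1542 and 649 counts against 316 and 51, and Ptprc (CD45) had 67 and 36 against 10 and 4. The B cell marker Ms4a1 had at most 1 count in any library, and the dendritic marker Itgax at most 3. Laptm5 and Cd79a were lower in Ogt iKO, Cd79a not in DESeq2 (adjusted p 0.05438). The part of such cells in the rise of the class II genes was not tested.

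The 2 libraries of a group differed for many of these markers. In control, replicate 1 had 6.14 times the Lyz2 level of replicate 2, and over the 13 tested markers this ratio ran from 0.881 (Flt3) to 6.14. For H2-K1, H2-D1, B2m, Tap1, Tap2, Tapbp and Cd274 it lay between 0.637 and 1.26. Between Ogt iKO replicates 1 and 2 the ratio was 0.985 to 1.33 for those 7 members and 0.529 to 2.25 for the markers. Markers with Ogt iKO ratios like those of the members included Csf1r (1.13), Spi1 (1.23) and Adgre1 (1.33). Nlrc5 (0.920 in control, 1.51 in Ogt iKO) and Ciita (0 and 0.648), which were not called, are outside the 7. Ctss had ratios of 2.66 in control and 1.91 in Ogt iKO, and it was not called when edgeR's spread was estimated robustly (adjusted p 0.08488). Its log2 fold change was 2.86 without control replicate 1, 1.46 without control replicate 2 and 1.47 without Ogt iKO replicate 1. H2-Eb1 had ratios of 1.15 and 0.816, Cd74 1.14 and 0.80, and H2-Aa 0.330 and 0.726. The fibroblast marker Col1a1 was 5.03 times higher in Ogt iKO replicate 1 than in replicate 2. The 6 members called higher were also called in the fit without Ogt iKO replicate 1, and in that without control replicate 1.

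**Figure D3:**
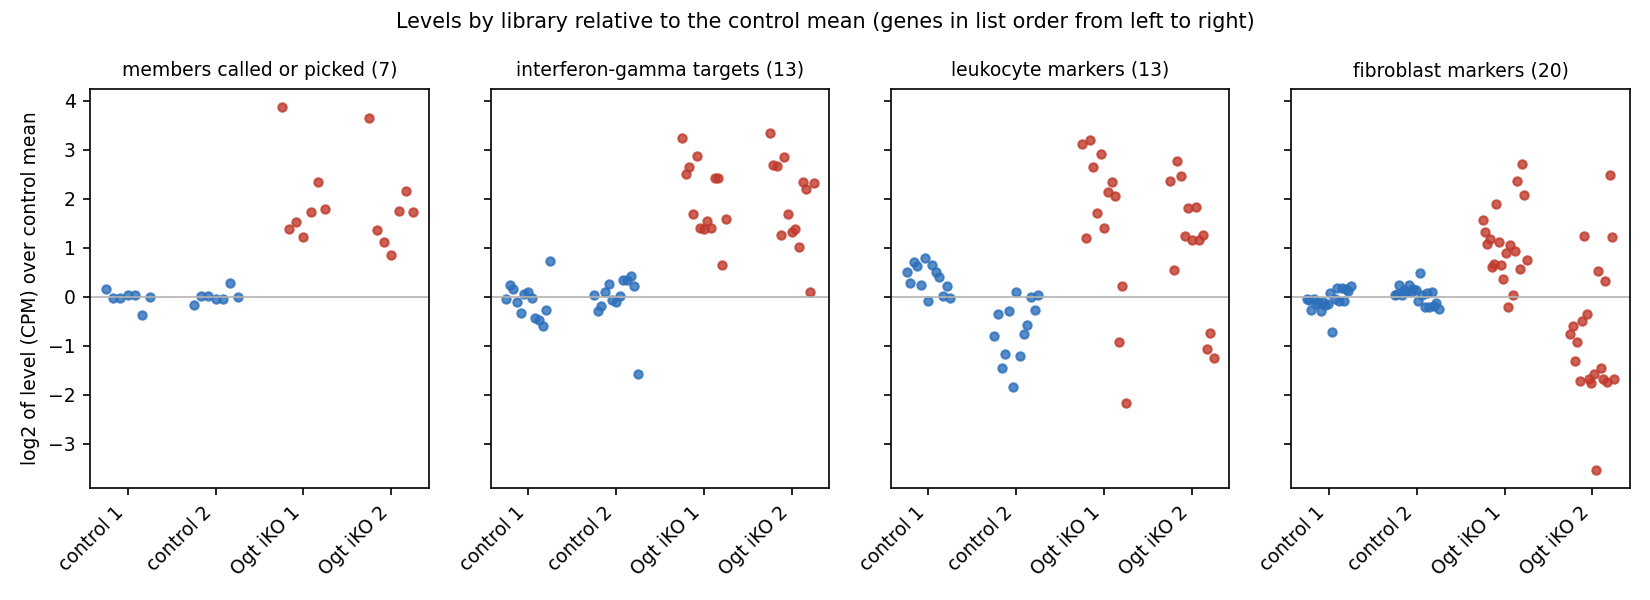
Level in each library as log2 of CPM over the mean of the 2 controls, 1 point per gene and library (blue, control; red, Ogt iKO), for 7 members, 13 interferon-gamma targets, 13 leukocyte markers and 20 fibroblast markers, all those tested in the last 3 lists. Some leukocyte markers differ between the controls (Lyz2 by 6.14 times) and others hardly do (Flt3, 8 and 9 counts). Fibroblast markers differ between the Ogt iKO libraries (Col1a1 by 5.03 times).

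Of 10 factors that act on MHC promoters 2 were higher and 3 lower, beside 33.2% and 32.0% of all genes. Rfx5 and Rfxap, subunits of the RFX complex on the X box, rose by 0.62 (SE 0.103) and 0.86 (SE 0.121), and the third subunit gene, Rfxank, was not called (0.19). Nfyb, a subunit of the Y box factor NF-Y, fell by 0.81 (SE 0.0587, adjusted p 1.1e-05, edgeR). Nfyc fell by 0.22, a call that was lost under 9 of 13 alternatives, and Nfya (-0.097) was not called. Atf1 fell by 0.25, lost under 4 of 13, and Creb1 (-0.037) was not called.

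Of 19 genes of interferon signalling tested, 8 were higher and 5 lower, beside 33.2% and 32.0% of all genes. Jak2, a kinase of the interferon-gamma receptor, had 780 and 552 counts against 174 and 165 and rose by 1.89 on the log2 scale (SE 0.135, adjusted p 1.006e-05, edgeR). Irf2 rose by 1.75, Socs1, a brake on the pathway, by 1.49 and Irf1 by 1.03. Without control replicate 1 the log2 fold change of Irf2 was 2.43. Jak1 rose by 0.74. Socs3 fell by 0.95, Ifngr1, the ligand-binding receptor chain, by 0.77 and Irf9 by 0.32. The fall of Ifngr1 was not called without control replicate 1 (adjusted p 0.06016) and that of Irf9 was lost under 6 of 13 alternatives. The ligand genes gave almost no counts: Ifng had 1 count in Ogt iKO replicate 1 and 0 in the other 3 libraries, and Ifnb1 had 0 in all 4.

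Of the interferon-gamma targets outside antigen presentation, 12 of the 13 tested were higher, each by at least 2-fold, and Cxcl10 was not called. The share higher by at least 2-fold was 14.9% over all genes. A control library was under the minimum of the filter for 5 of the 13. Gbp2, a guanylate-binding GTPase, had 1542 and 1490 counts after deletion and 143 and 150 without (log2 fold change 3.29, SE 0.0907, adjusted p 2.486e-07, edgeR). Gbp7 rose by 2.86 and Gbp4 by 2.65. For the 7 of these genes with over 100 counts in Ogt iKO replicate 1, the ratio of control replicate 1 to 2 was 0.661 to 1.45. Cxcl9 and Cxcl11, chemokines that interferon-gamma raises, had at most 3 counts in any library.

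Among surface ligands read by lymphocytes or phagocytes, 7 of the 10 tested besides Cd274 were higher and 1 was lower. This stands beside 33.2% and 32.0% of all genes. Cd200, with 1 control library under the minimum of the filter, had 41 and 41 counts against 11 and 9 (fitted log2 fold change 1.94). Higher too were Vsir, which encodes VISTA, with 170 and 129 counts against 54 and 52 (1.41, SE 0.189), and Cd80, with 205 and 216 against 116 and 81 (1.02, SE 0.197). Smaller rises were those of Cd47, the "do not eat me" signal (0.78), Pvr (0.66), Icosl (0.57) and Cd276 (0.34), the last lost under 3 of 13 alternatives. Lgals9 fell by 0.71. Nectin2 (0.0091) and Ceacam1 (-0.35) were not called. The second PD-1 ligand, Pdcd1lg2, had 0 counts in all 4 libraries, which allows up to 0.196 CPM. Cd86, Tnfrsf14 and Vtcn1 were too low to be tested.

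Of 10 tested regulators of the PD-L1 protein 1 was higher and 2 lower, beside 33.2% and 32.0% of all genes. Hip1r rose by 0.39, Cmtm6, which keeps PD-L1 at the surface, fell by 0.30 and Stt3a by 0.19, and 7 were not called. The fall of Cmtm6 was lost with scaling by library totals alone, and that of Stt3a under 5 of 13 alternatives. Of ligands of activating NK receptors 3 were tested, and Ulbp1 (0.52) and H60b (-0.0091) were not called. Raet1e, which passed the filter through its Ogt iKO libraries alone, had 44 and 36 counts against 10 and 9.

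The 5 protein-coding genes on each side of Cd274 and of H2-Aa were read next. Beside Cd274, 2 genes were higher and 2 lower. Jak2 starts 110.3 kb before Cd274, and the 3 genes between them, Insl6, Rln1 and Plgrkt, were not called. Ric1 rose by 0.64, Rcl1 fell by 1.21 and Ermp1 by 0.20, the last call lost under 3 of 13 alternatives. Plgrkt, whose annotated span overlaps that of Cd274, had 231 and 183 counts against 197 and 186 (log2 fold change 0.027, SE 0.138). Beside H2-Aa, Tap1, Psmb8, Tap2 and H2-Eb1 were higher, its nearest neighbour H2-Ab1 was not called, and the other 5 were not tested.

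**Figure D4:**
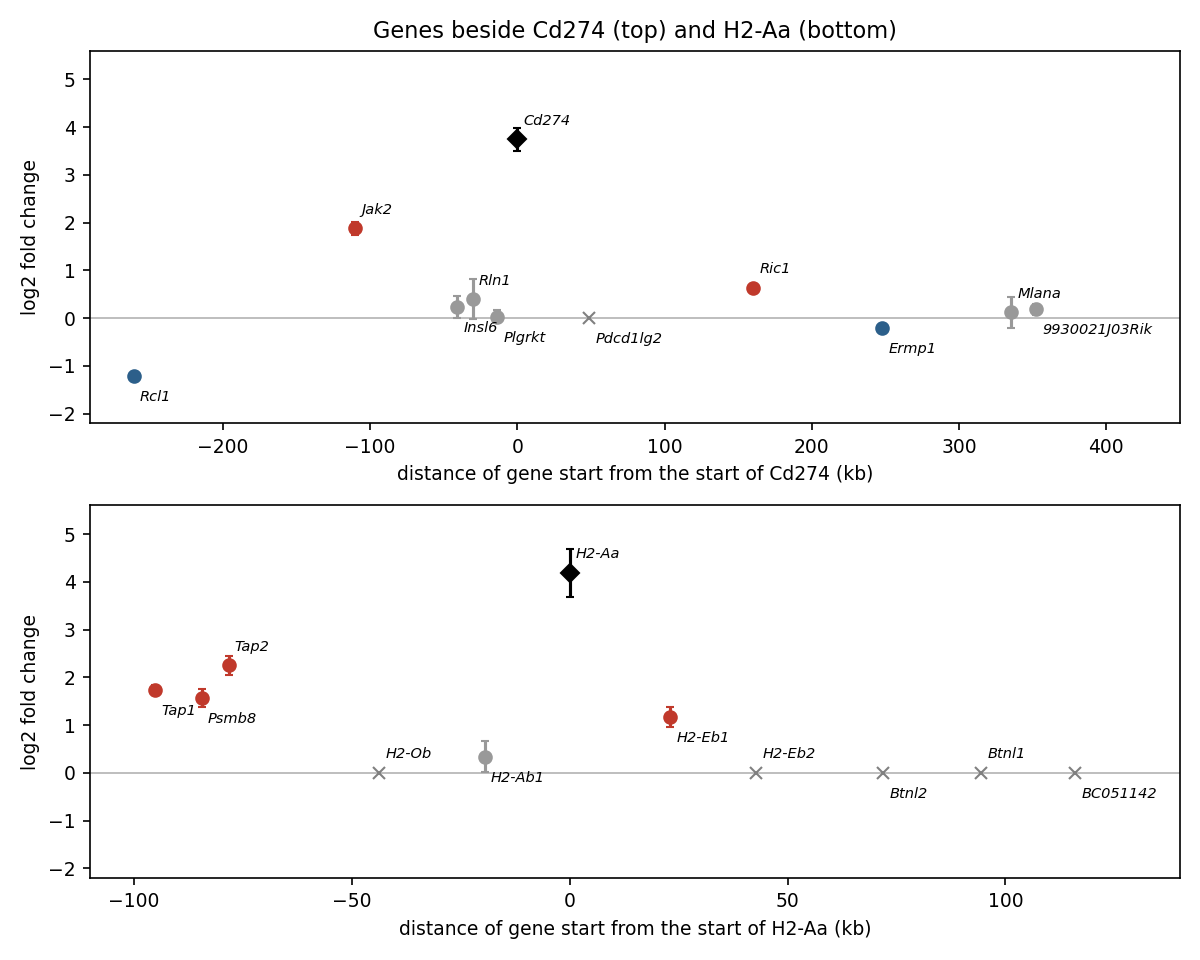
Fitted log2 fold change (error bars, SE) of the 5 protein-coding genes on each side of Cd274 and of H2-Aa (black diamonds) against the distance of their starts in kb; red, called higher; blue, called lower; grey, not called; crosses at 0, not tested. Jak2 (1.89) and Cd274 (3.75) are separated by 3 genes near 0.

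The genes nearest to Cd274 in pattern, by Euclidean distance of mean-centred log2 CPM (prior count of 2) over the 4 libraries, were Krt18 (distance 0.189), Gbp10 (0.248) and Vsnl1 (0.262). Krt18, a keratin gene, had 4077 and 3767 counts against 344 and 266, and Gbp10 had 29 and 21 against 0 and 0, so that the distance of Gbp10 depends on the prior count. Those nearest to H2-Aa were Wdr72 (0.262), Tmem130 (0.373) and Tex16 (0.423). Wdr72 had 62 and 62 counts against 2 and 5. With 4 libraries in 2 groups, such likeness is set mostly by the size of the difference between groups.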

How the data were processed

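Polyadenylated RNA of 4 libraries (2 Ogt iKO, 2 control, grouped by title) was measured. The authors deposited raw counts per gene symbol, 1 table per library with no header; STAR, Picard and mm10 are named per the submitters' processing notes, while versions, annotation and counted strand are not given in the sources used here. All rows named a gene. Counts were fitted with edgeR 4.0.16 in R 4.3.3 (TMM, filterByExpr, quasi-likelihood test, all 4 libraries, no covariate; Benjamini-Hochberg over 14525 genes). Standard errors came from the fold change and its F statistic. The fit was tested on simulated data with 200 changed genes. With 2 against 2 libraries an exact test of 1 value cannot go below p = 0.333. Positions and promoters are RefSeq GRCm38.p6 (mm10 is GRCm38); exon lengths and 50-base windows are from GENCODE M21. The members and lists were chosen with earlier results of these data known. Named genes are Ogt, the members, up to 3 called genes per list and direction by size, all of the class II, promoter-factor and checkpoint lists, called neighbours and nearest patterns; other genes, such as Calr, Irf1, Psme1 and uncalled neighbours, were added after their values were seen. Alternatives were RLE, library totals or upper-quartile scaling, DESeq2 1.42.0, other filters, a robust spread, a replicate block, stricter calls and leaving out each library.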

Additional observations from a re-analysis of the deposited data

How the results depend on the processing

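The 6 members called higher were called under all 13 alternatives, and the number called was 7 without control replicate 2, where the remaining control of Ciita has 0 counts. Their log2 fold changes ran from 0.85 (B2m without Ogt iKO replicate 1) to 2.60 (Tap2 without control replicate 2). Scaling by library totals shifted the all-gene median (log2) from 0.024 to 0.19 and gave 6116 higher and 3282 lower genes, against 4827 and 4651, and of the listed genes 61 higher and 7 lower, against 57 and 15. A fold of at least 2, chosen after seeing the data, gave 2171 higher and 877 lower genes overall and 39 and 2 listed ones. With 1 library left out, the listed genes gave 52 to 60 higher and 12 to 18 lower. The interferon-stimulated response element core with 1 more A was found in 1 member, B2m, instead of 2, and Cd274 did not hold it. Signs that changed belonged to genes not called: with library totals H2-DMa (0.013), Nfya (0.072) and Creb1 (0.13), with upper quartiles Creb1 (0.0050), and in leave-one-out fits Ceacam1 (-0.69 to 0.068, above 0 without control replicate 1). Nectin2 changed sign with RLE (-0.00067), DESeq2 (-0.016), no filter (-0.0073) and in leave-one-out fits (-0.041 to 0.041, below 0 without Ogt iKO replicate 2, and at -0.020 without control replicate 2). Library totals called Nectin2 (0.18, adjusted p 0.01775) and Rfxank (0.36, adjusted p 0.0348) higher. The causes were not tested. The replicate block gave 4922 higher and 4719 lower genes and changed no call among the 75 genes refitted under the alternatives. Same-numbered libraries had deviations with a correlation of 0.086 across genes, and the labels tie the numbers to nothing shared. Genes under the filter's minimum, such as 14 of the 29 class I genes, were not tested at this depth.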

Other observations

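The stretch of chromosome 17 from Tapbp to H2-D1 (33919478 to 35267497, GRCm38), chosen after its values were seen, held 63 tested protein-coding genes. Of its 11 genes of the class I, loading, proteasome and class II lists other than H2-Aa, 9 were higher and 2 were not called (edgeR). Of the other 51 genes, 5 were higher, 24 lower and 22 not called, with a median log2 fold change of -0.30 against 1.34 for the 11. Over all genes 33.2% were higher and 32.0% lower. The difference between these sets was not tested, and earlier results for the 11 were known when the stretch was chosen. The stretch begins and ends with members called higher, and the H2-Q, H2-T and H2-M genes lie beyond it. Of those tested, H2-Q2, H2-Q4, H2-Q10 and H2-M3 were higher, H2-T3 and H2-M5 lower, and H2-Q6, H2-T23 and H2-T24 not called.

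Among genes too low for the test, some differed in raw counts in either direction, and those named here were picked for that difference. Vtcn1, a B7-family ligand, had 17 and 8 counts after deletion and 1 and 2 without. Raet1d, an NK receptor ligand, had 11 and 9 counts against 1 and 2. Such low counts are given as a description only. Both Ogt iKO libraries were below both controls for H2-Bl, a class I gene with 8 and 7 counts against 10 and 22, and for H2-Eb2, a class II gene with 6 and 4 against 10 and 8.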
